A study of Rattus norvegicus with 14 samples.

Results

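The melanocyte pigment genes examined here were Tyr, Tyrp1, Dct, Pmel, Mlana, Slc45a2, Oca2, Gpr143, Mitf and Mc1r, taken as the array probes whose RefSeq accession belongs to one of these symbols. Of the 10 genes, 6 had a matched probe and were tested among 18625 genes (Tyr, Tyrp1, Gpr143, Slc45a2, Mlana and Mitf). Dct, Pmel, Oca2 and Mc1r had none and are not analysed here. The skin came from male CD hairless rats. One group of 6 animals had been exposed chronically to 94 GHz millimetre waves and the other, of 8 animals, was sham exposed, both on a schedule of 3 h per day and 3 days per week over 5.5 months. Expression was read on 14 one-colour Agilent arrays, 1 per animal, and the comparison asked whether the exposure changed gene expression in skin. All animals share the hairless background. The labels give neither age nor coat colour, and animals shared cages in pairs that are not identified, so p-values treat animals as independent.

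Melanocytes make melanin inside melanosomes, organelles related to lysosomes. Tyr, tyrosinase, catalyses the rate-limiting oxidation of tyrosine, and Tyrp1 and Dct are related enzymes that act later in eumelanin synthesis. Pmel forms the fibrils on which melanin is laid down, Mlana is a melanosomal membrane protein, Slc45a2 and Oca2 are melanosomal transporters that affect luminal pH, and Gpr143 is a melanosomal receptor-like protein mutated in ocular albinism. Mitf is the transcription factor that drives these genes through E-box elements such as the M-box, and the receptor Mc1r acts upstream of it through cyclic AMP. In rodent skin the pigment-forming melanocytes sit mainly in the hair follicle, where they supply the growing shaft, so hair keratins were used as a readout of follicle content: Krt85 of the hair shaft cortex and Krt25 of the inner root sheath. CD rats are an albino stock, and albinism in laboratory rats lies in the tyrosinase gene; a loss of enzyme activity need not change the transcript that an array detects.

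The promoter windows below are shown because the levels of Tyr, Tyrp1 and Gpr143 correlated between animals; Mlana, whose correlations with them did not pass, is shown beside them. Each runs from 250 bases before to 50 bases from the transcript start of the RefSeq table (GRCr8), 5′ to 3′ on the gene's strand, and capitals mark CATGTG or its reverse complement CACATG. The Tyr window is chr1:150622808-150623107, minus strand. The Tyrp1 window is chr5:100326875-100327174, plus strand. The Gpr143 window is chrX:25498351-25498650, plus strand. The Mlana window is chr1:236882825-236883124, plus strand.
Tyr: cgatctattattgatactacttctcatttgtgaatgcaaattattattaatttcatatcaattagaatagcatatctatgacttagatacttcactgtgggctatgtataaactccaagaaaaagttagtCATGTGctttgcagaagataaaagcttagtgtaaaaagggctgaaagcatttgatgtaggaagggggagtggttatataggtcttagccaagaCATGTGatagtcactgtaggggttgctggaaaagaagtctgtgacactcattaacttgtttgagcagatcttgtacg
Tyrp1: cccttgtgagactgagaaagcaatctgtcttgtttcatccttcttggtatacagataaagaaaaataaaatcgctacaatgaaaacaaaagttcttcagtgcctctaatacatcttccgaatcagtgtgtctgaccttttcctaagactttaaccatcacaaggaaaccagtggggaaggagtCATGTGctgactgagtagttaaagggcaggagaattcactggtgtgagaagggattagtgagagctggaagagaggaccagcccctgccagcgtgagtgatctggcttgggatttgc
Gpr143: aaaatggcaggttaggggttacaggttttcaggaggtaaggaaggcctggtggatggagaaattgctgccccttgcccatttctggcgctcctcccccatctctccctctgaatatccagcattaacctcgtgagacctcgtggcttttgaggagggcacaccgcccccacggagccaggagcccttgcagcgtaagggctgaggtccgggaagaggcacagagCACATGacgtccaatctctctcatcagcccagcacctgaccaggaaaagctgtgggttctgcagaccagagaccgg
Mlana: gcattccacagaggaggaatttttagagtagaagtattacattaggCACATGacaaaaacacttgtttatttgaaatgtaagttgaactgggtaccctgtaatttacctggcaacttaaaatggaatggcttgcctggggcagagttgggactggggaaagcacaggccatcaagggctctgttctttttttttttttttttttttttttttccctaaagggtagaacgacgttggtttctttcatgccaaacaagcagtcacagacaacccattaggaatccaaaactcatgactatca
The Tyr and Tyrp1 windows both hold the 11 letters AGTCATGTGCT, the form of the M-box known from pigment gene promoters. These letters were taken from the Tyr window itself, around its TCATGTG, so the match in Tyr was fixed in advance. The letters begin at position -123 from the start in Tyr and at -70 in Tyrp1. Over all 33469 windows of the table, 12 (0.0359%) held these letters on either strand. The shorter TCATGTG, which lies inside them and contains CATGTG, was in the windows of 5 of the 9 members with a window (Tyr, Tyrp1, Dct, Gpr143 and Mlana), against 3.56% of all windows. CATGTG was in 4675 of all windows and the other E-box searched, CACGTG, in 2148 (6.42%). Gpr143 and Mlana carry the motif as its reverse complement, beginning at positions -26 and -204. No window of a member held CACGTG, and the windows of Pmel, Oca2, Mitf and Mc1r held none of these letters. A match describes the sequence and was not tested as a binding site.

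Values below are log2 signals relative to the 75th percentile of the same array, averaged over the spots of a probe, and a gene is given by its brightest probe well above background on at least 6 arrays. Levels of different probes were compared only to choose a gene's probe and the members whose most similar genes are named. A value not well above background is a bound, and its rank among animals cannot be read. The 75th percentile itself was 1075 to 1966 scanner units on the 6 exposed arrays and 804.5 to 1967 on the 8 sham arrays. The arrays were grouped into 4 slides by the first part of the array code in each sample title, so the slide is inferred. In the file headers each of these groups had its own scan date, so slide and scan date cannot be told apart. Slide 2 carried 2 exposed animals and slide 1 carried 2 sham animals, whereas slide 3 mixed 3 exposed with 3 sham animals and slide 4 mixed 1 exposed with 3 sham animals. In bulk skin, fewer cells of a type and less RNA per cell cannot be told apart.

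The genes Tyrp1, Tyr and Gpr143 gave dim signals that were uneven between animals. The probe of Tyrp1 stood well above background in 5 of the 6 exposed animals and in all 8 sham animals. Its level ran from -6.10 through a median of -3.25 to -2.05 in exposed skin, against -4.59, -3.66 and -2.29 in sham skin. Exposed animal 5 was the highest of all 14. In exposed animal 3 the probe was not well above background. The limit of that array, its dimmest signal well above background, was -5.75, under every other animal's level. A dim probe can lie above this limit without being well above background, as Slc45a2 did in exposed animal 3 at -5.51. Tyr was also highest in exposed animal 5. Its level was -7.45 at the lowest, -5.13 at the median and -3.62 at the highest in exposed skin, against -6.67, -5.69 and -4.64 in sham skin. The Tyr probe was not well above background in exposed animal 3 and sham animal 2, which leaves 5 exposed and 7 sham animals with the probe well above background. The pigment cell receptor Gpr143 ran from -6.72 through -5.37 to -4.18 in exposed skin and from -6.29 through -5.70 to -4.63 in sham skin. Only in exposed animal 3 was its probe not well above background. Among the animals in which the probe was well above background, Tyrp1 spanned 5.82-fold (13 animals), Tyr 6.02-fold (12 animals) and Gpr143 4.32-fold (13 animals).

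The transporter gene Slc45a2 was also dim. It was well above background in 5 exposed and 6 sham animals and ran from -5.57 through -5.24 to -4.38 in exposed skin, against -5.81, -5.28 and -4.33 in sham skin. Mlana was detected on all 14 arrays. Its level ran from -0.24 through 0.13 to 0.58 in exposed skin and from -0.31 through 0.30 to 0.92 in sham skin, and its extremes were sham animals 4 and 8. Mitf, which is also expressed in mast cells, macrophages and other cells of skin, was the most even of the 6, with 0.28, 0.64 and 0.89 in exposed skin and 0.54, 0.72 and 1.01 in sham skin as the lowest, median and highest. Over all 14 animals it spanned 1.66-fold and Mlana 2.36-fold. The groups overlapped for all 6 genes; over all genes, the groups did not overlap for 0.0322%.

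**Figure D1:**
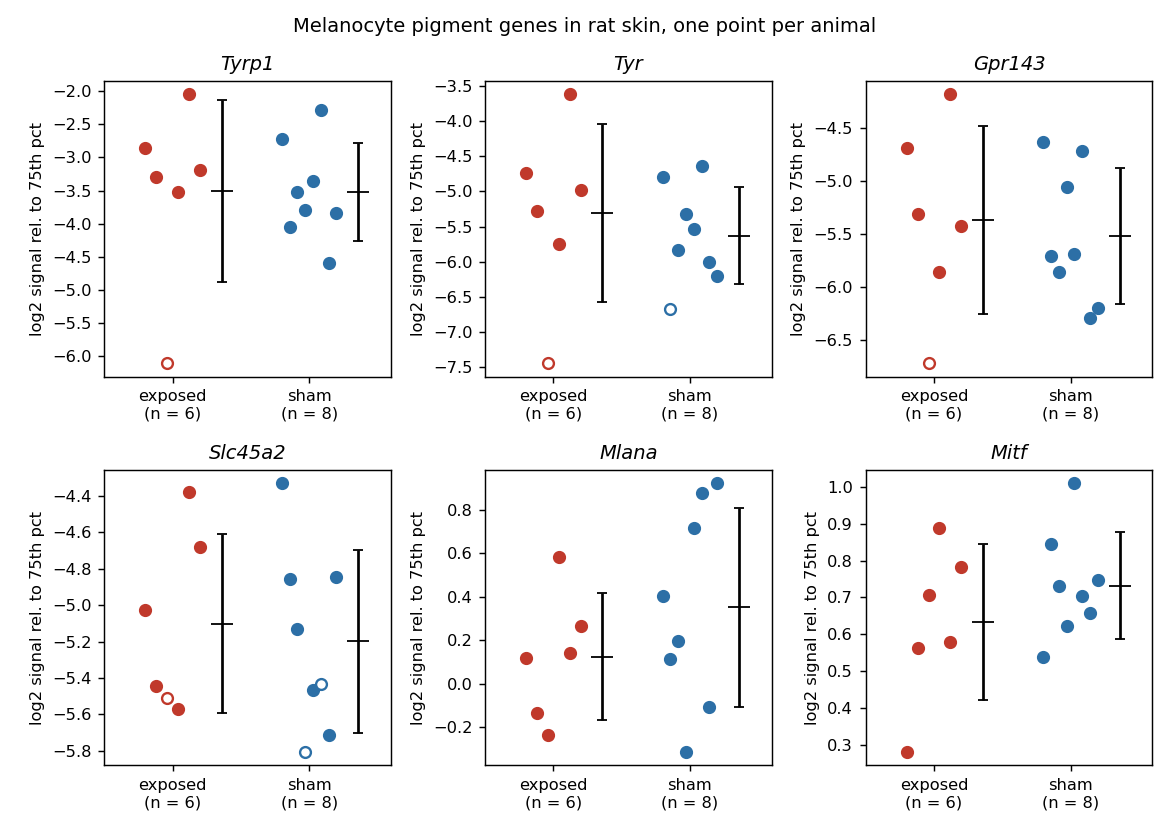
Each panel plots 1 gene, with 1 point per animal and the log2 signal relative to the array's 75th percentile on the y axis (axes differ between panels), exposed animals (red, n = 6) left of sham animals (blue, n = 8). Open points were not well above background, and black bars give the mean and SD; Tyrp1, Tyr and Gpr143 are highest in exposed animal 5 and not well above background in exposed animal 3, while Mlana and Mitf are well above background in every animal.

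No measured pigment gene passed the test of exposed against sham skin. With limma over 18625 genes, 0 of the 6 had an adjusted p under 0.05 and 0 an unadjusted p under 0.05. The background of calls in this comparison was 0% of all genes, and 635 genes had an unadjusted p under 0.05. The mean of Tyr was -5.30 ± 1.27 in the exposed group (SD, n = 6), against -5.63 ± 0.69 in the sham group (SD, n = 8). Exposed minus sham was 0.32 for Tyr (95% interval -0.71 to 1.36; limma adjusted p = 1.00). The mean of Tyrp1 was -3.50 ± 1.37 in the exposed group and -3.52 ± 0.74 in the sham group, and exposed minus sham was 0.02 (95% interval -1.09 to 1.13). These intervals leave room for changes of over 2-fold in either direction for Tyrp1 and upward for Tyr.

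Gpr143 differed by 0.16 (95% interval -0.65 to 0.96) and Slc45a2 by 0.10 (-0.44 to 0.63). Mlana differed by -0.23 (95% interval -0.66 to 0.20) and Mitf by -0.10 (-0.31 to 0.11), so the interval of Mitf was the narrowest. The median difference of the 6 was 0.06, against -0.02 over all genes tested. Leaving out exposed animal 3 moved Tyrp1 to 0.54, Tyr to 0.75 and Gpr143 to 0.43. Leaving out exposed animal 5 moved the same genes to -0.27, -0.01 and -0.08, of the other sign for all 3. Within slide 3, which held both of these animals, Tyrp1 differed by -0.33, Tyr by -0.04 and Gpr143 by -0.05. Within slide 4 they differed by 0.38, 0.64 and 0.32, and Slc45a2 by 0.65.

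Probes of one gene could be compared for Tyrp1 and Mitf. The second Tyrp1 probe followed the first over the 14 animals (r = 0.960) and differed by 0.18 between exposed and sham skin. The 3 Mitf probes followed one another less closely, with r from 0.278 to 0.588, and differed by -0.26, 0.01 and -0.10. The probe at -0.10 is the one used. Mitf has several transcript forms, among them the melanocyte form, and the files do not say which of them each probe reads.

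The levels of Tyr, Tyrp1 and Gpr143 correlated from animal to animal. Of the 15 pairs of measured members, these 3 pairs passed a permutation test of Pearson's r over the 14 animals (two-sided, 100000 resamples, adjusted over the 15 pairs), and the same 3 passed with Spearman's rho. Tyr and Tyrp1 had r = 0.919 (permutation p = 3e-05, adjusted p = 0.00015) and rho = 0.956 (permutation p = 1e-05, the smallest the resamples can give). Tyr and Gpr143 had r = 0.916 (permutation p = 1e-05, adjusted p = 7.5e-05) and rho = 0.912 (permutation p = 3e-05). Tyrp1 and Gpr143 had r = 0.876 (permutation p = 1e-05, adjusted p = 7.5e-05) and rho = 0.877 (permutation p = 0.0001). Each relation was present in both groups taken alone: r was 0.975 in exposed and 0.827 in sham animals for Tyr with Tyrp1, 0.973 and 0.837 for Tyr with Gpr143, and 0.932 and 0.812 for Tyrp1 with Gpr143.

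The 3 coefficients stayed high when extreme or dim animals were left out. Without exposed animals 3 and 5, the 2 farthest from the median, r was 0.839 for Tyr with Tyrp1, 0.841 for Tyr with Gpr143 and 0.815 for Tyrp1 with Gpr143. Over the animals in which both probes were well above background it was 0.888 (n = 12), 0.945 (n = 12) and 0.868 (n = 13). Within slide 3 it was 0.946, 0.973 and 0.858 (n = 6 each), and each other slide held fewer than the 6 arrays required here for a correlation. With values not well above background raised to their array's limit, r was 0.735, 0.895 and 0.732 (adjusted permutation p = 0.0167, 0.00015 and 0.0167). That limit is the dimmest signal well above background, so this setting does not show how high a dim value could lie. Exposed animals 3 and 5 and sham animal 6 are the arrays on which the scaled values agreed least with the authors' values (r = 0.946, 0.959 and 0.902, against 0.979 or above on the others), and sham animal 6 had the dimmest array. Without these 3, r was 0.806, 0.809 and 0.780 (adjusted permutation p = 0.0215, 0.0215 and 0.0231; 11 animals). Both of these settings were chosen after seeing the data.

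The pairs with Mlana, Mitf or Slc45a2 did not pass, and whether their coefficients differ from those of the 3 pairs was not tested. Mlana correlated with Tyr at r = 0.182 and with Gpr143 at r = 0.0793. With Tyrp1 it reached r = 0.440 (permutation p = 0.115, adjusted p = 0.227). Mitf had a negative r with all 3, the farthest from 0 being -0.513 with Gpr143 (permutation p = 0.0580, adjusted p = 0.217). With the mean of each gene's probes in place of the brightest, the r of Mitf was -0.271 with Tyr, -0.083 with Tyrp1 and -0.357 with Gpr143. Slc45a2 had r from 0.418 to 0.479 with the 3 genes and did not pass (adjusted p = 0.227 for each). Over the animals in which both probes were well above background, r was 0.663 with Tyr (n = 10), 0.637 with Tyrp1 (n = 11) and 0.659 with Gpr143 (n = 11). With normexp background correction, which treats dim spots differently, Slc45a2 did pass with all 3, at r = 0.746 with Tyr, 0.697 with Tyrp1 and 0.798 with Gpr143 (adjusted permutation p = 0.00624, 0.0137 and 0.00424).

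**Figure D2:**
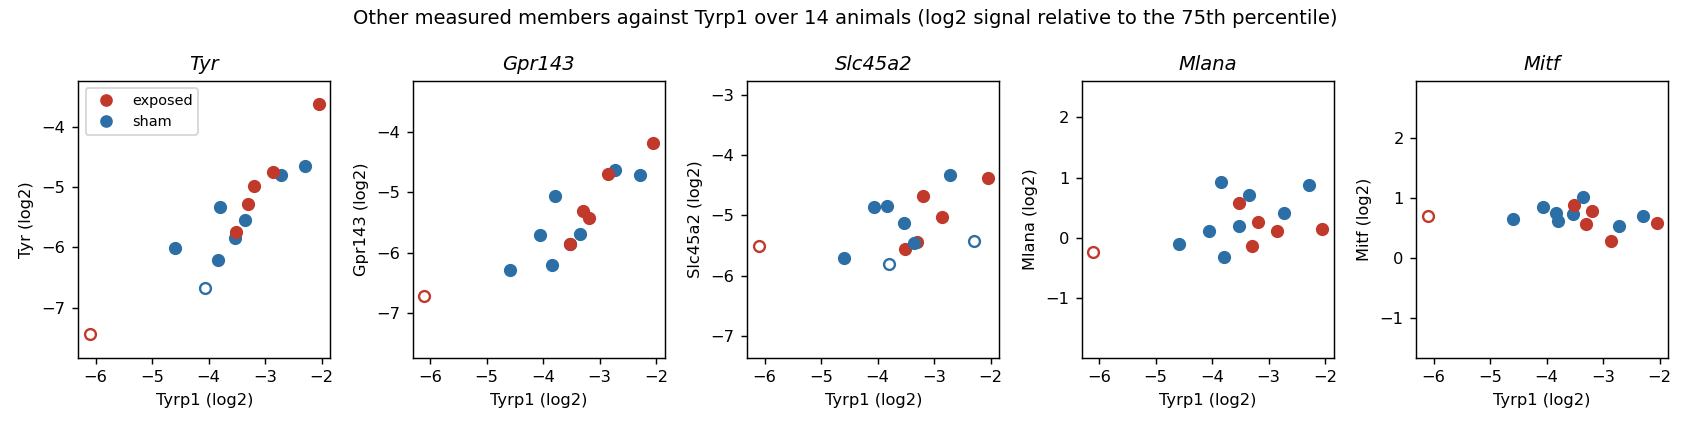
Each panel plots 1 gene against Tyrp1, both as log2 signal relative to the array's 75th percentile, over 14 animals (exposed red, sham blue; open points had a probe not well above background). The y axes cover equal spans; Tyr and Gpr143 climb with Tyrp1 (r = 0.919 and 0.876), and Mlana and Mitf stay within a narrow band.

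To set these pairs against all genes, the slope of each gene on the Tyrp1 level was fitted with limma over 18624 genes, with group as a term. This comparison was chosen after the pairs had been seen, so it describes the same covariation against a wider background. In all, 4 genes were called (0.0215%), all with positive slopes, and Tyr was one of them, at 0.87 ± 0.095 (SE) log2 units per log2 unit of Tyrp1 (limma adjusted p = 0.00414). Gpr143 had a slope of 0.63 ± 0.096 (SE) with limma adjusted p = 0.0583 and was not called. The other 3 were C1qtnf3, a secreted protein of the C1q and TNF family with a slope of 0.31, and the unannotated accessions NM_001108729 at 0.64 and ENSRNOT00000011571 at 0.78. The reference tables pair neither accession with a symbol, so whether either belongs to a pigment gene is not known here. All 3 had their lowest exposed level in exposed animal 3 and their highest in exposed animal 5. The Tyr call was lost without exposed animal 3 (slope 0.93, limma adjusted p = 0.285), with slide as a block (0.88, limma adjusted p = 0.0566), within slide 3 (0.89, limma adjusted p = 0.270), with the Krt85 level as a covariate (0.78, limma adjusted p = 0.0546) and in sham animals alone (0.78, limma adjusted p = 0.104).

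Marker levels of other cell types in the 2 animals at the extremes were as follows. Exposed animal 3, in which Tyr, Tyrp1 and Gpr143 were not well above background, had the highest score for the hair shaft list (1.82; exposed animals -1.50 to 1.82, sham animals -1.79 to 1.62) and the lowest for the macrophage list (-0.85; exposed animals -0.85 to 0.28, sham animals -0.14 to 0.36). For the inner root sheath (0.09), Schwann cell (-0.09), mast cell (-0.35) and skeletal muscle (0.16) lists, exposed animal 3 scored inside the sham range. Exposed animal 5, highest for the 3 genes, had scores of 0.26 for the hair shaft list and 0.19 for the macrophage list, both inside the sham range. Its scores for the other lists, in the order above, were 0.53, 0.20, 0.18 and 2.04, also inside the sham range. A score averages, over a list's measured genes, each gene's log2 deviation from its own average in all 14 animals. All 7 macrophage genes had positive slopes on Tyrp1 and 0 of them passed, with Mrc1, the mannose receptor, at 0.40 (limma adjusted p = 0.615). Of 8 mast cell genes, 7 had positive slopes and 0 passed, and of 8 Schwann cell genes 2 were positive and 0 passed. The part of these cells in the variation of the pigment genes was not tested.

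The relation to hair keratins asked whether skin with more hair keratin signal also had more pigment gene signal. The amount and state of follicle tissue were not measured. Krt85 ran from -3.41 through -0.66 to 1.92 in exposed skin and from -3.44 through -1.94 to 1.54 in sham skin, a 41.1-fold span over all animals. Krt25 ran from 3.95 through 5.95 to 6.82 in exposed skin and from 3.35 through 4.86 to 6.31 in sham skin, a span of 11.1-fold. The largest gap between neighbouring animals was 0.230 of the range for Krt85 and 0.174 for Krt25, so the animals formed a continuum. No spot of either keratin was saturated.

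Hair genes followed the keratins, and pigment genes did not pass in either direction. Of 10 other hair shaft genes tested, 10 had positive slopes on Krt85 and 8 passed. Among those that passed were the shaft keratins Krt33a (slope 0.91, limma adjusted p = 1.75e-07) and Krt31 (0.68, limma adjusted p = 4.48e-06). Of 9 other inner root sheath genes, 8 had positive slopes on Krt25 and 6 passed, among them Krt27 (slope 1.10, limma adjusted p = 6.43e-07). Over all genes, 0.569% were called for Krt85 (0.526% with a positive and 0.043% with a negative slope) and 0.644% for Krt25 (0.542% and 0.102%). Of the 6 pigment genes, 0 were called with limma for either keratin. At an unadjusted p under 0.05 there were 2 of 6 for Krt85 (1357 of all genes) and 1 of 6 for Krt25 (1990 of all genes).

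The slopes of Tyr, Tyrp1 and Gpr143 were below 0 for both keratins. On Krt85 they were -0.31 ± 0.114 (SE) for Tyr (95% interval -0.56 to -0.07; limma adjusted p = 0.537), -0.28 ± 0.132 (SE) for Tyrp1 (-0.57 to 0.00079) and -0.23 ± 0.091 (SE) for Gpr143 (-0.42 to -0.03). On Krt25 they were -0.38 (95% interval -0.87 to 0.11), -0.29 (-0.85 to 0.26) and -0.35 (-0.71 to 0.02). Without exposed animal 3, highest for Krt85, the slopes on Krt85 were -0.20, -0.12 and -0.16. Mitf had positive slopes, 0.05 on Krt85 (95% interval -0.01 to 0.10) and 0.10 on Krt25 (0.0050 to 0.19; limma adjusted p = 0.433). The slopes of Mlana were -0.03 and 0.01, and those of Slc45a2 were 0.02 and 0.01.

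Correlations over the animals gave the same picture without the group term. The 12 values of member and keratin included 0 past an adjusted permutation p under 0.05. Tyr with Krt85 had r = -0.556 (permutation p = 0.0378, adjusted p = 0.256 over the 12) and rho = -0.596 (permutation p = 0.0269, adjusted p = 0.158). Gpr143 with Krt85 had r = -0.539 (permutation p = 0.0485, adjusted p = 0.256) and rho = -0.543 (permutation p = 0.0476, adjusted p = 0.158). Tyrp1 with Krt85 had r = -0.499 (permutation p = 0.0640, adjusted p = 0.256) and rho = -0.534 (permutation p = 0.0525, adjusted p = 0.158). Without exposed animal 3 and sham animal 2, the 2 animals farthest from the median of Krt85, r was -0.226 for Tyr, -0.382 for Gpr143 and -0.164 for Tyrp1. Leaving them out also narrows the range of Krt85. These are the 2 animals highest for Krt85 and the 2 in which Tyr was not well above background. The slope, r and rho of Tyr on Krt85 therefore rest partly on bounds. For Tyrp1 and Gpr143 this holds in exposed animal 3. Within slide 3, r was -0.534 for Tyr, -0.521 for Gpr143 and -0.557 for Tyrp1 (n = 6; exact permutation p = 0.274, 0.281 and 0.263). With Krt25 the r of the 3 genes lay between -0.420 and -0.274.

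**Figure D3:**
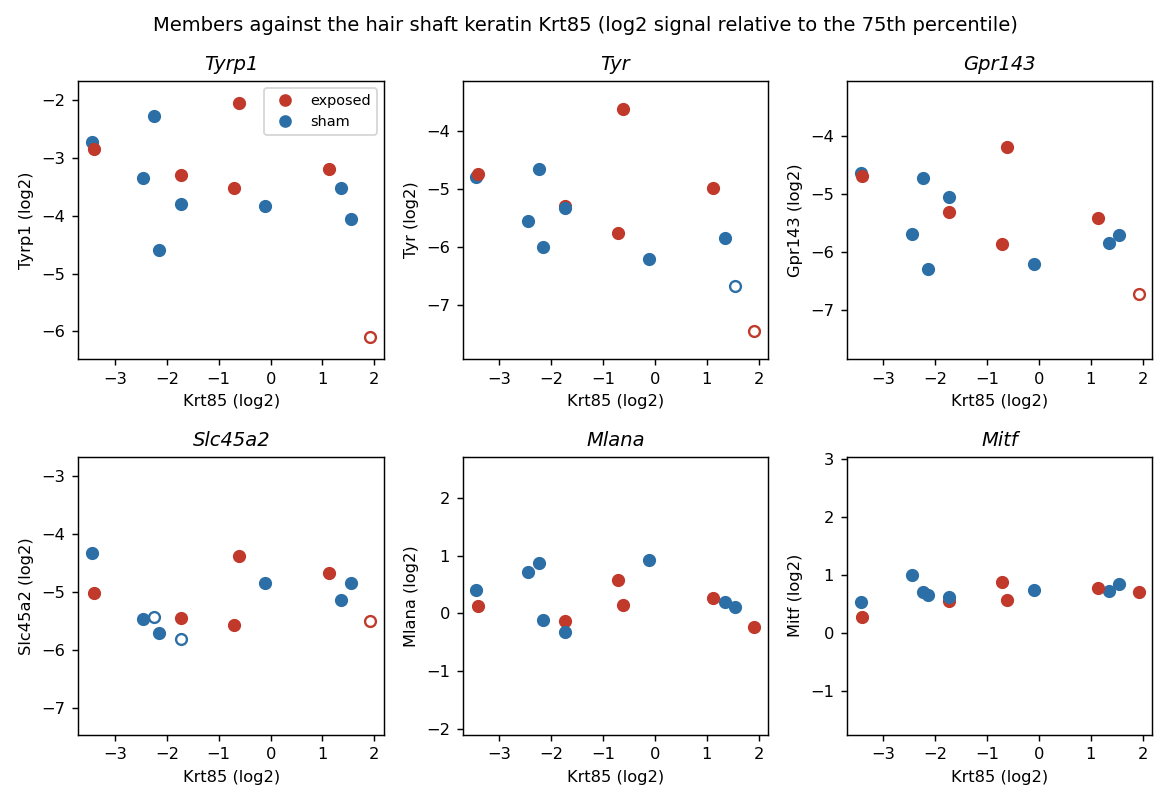
Each panel plots 1 gene (y) against Krt85 (x), both as log2 signal relative to the array's 75th percentile, with 1 point per animal (exposed red, sham blue; open points not well above background) and equal y spans. Tyrp1, Tyr and Gpr143 are not well above background in exposed animal 3, which has the highest Krt85, and Slc45a2, Mlana and Mitf show little slope.

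**Figure D4:**
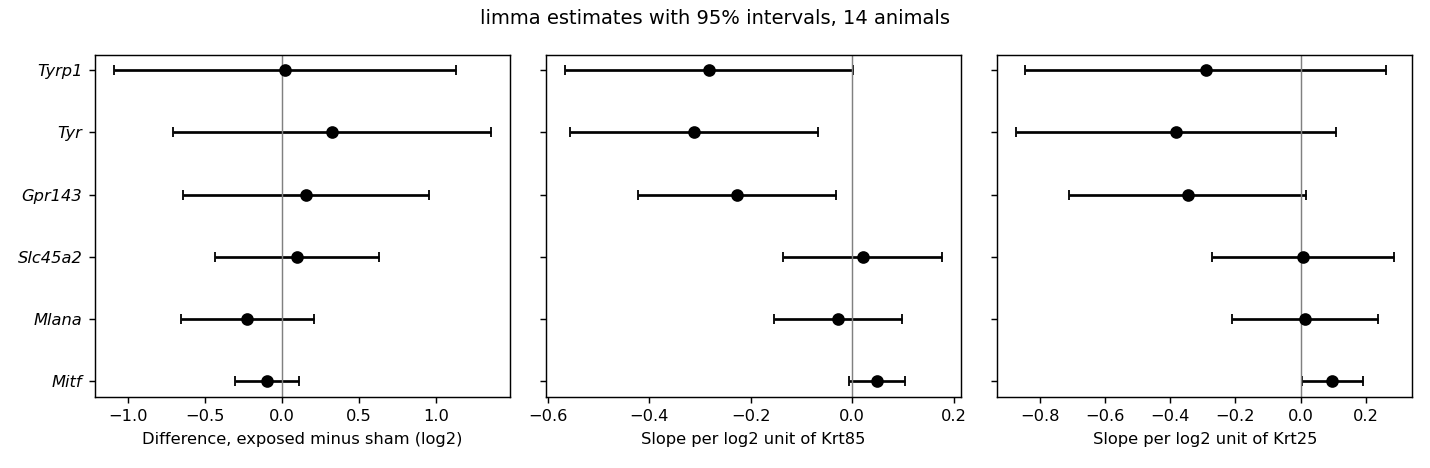
Points are limma estimates and bars their 95% intervals for the 6 measured genes over 14 animals: the difference of exposed minus sham (log2, left), and the slope per log2 unit of Krt85 (middle) and of Krt25 (right) with group as a term. All 6 intervals of the difference include 0, and the intervals of Tyr and Gpr143 on Krt85 and of Mitf on Krt25 exclude 0 before adjustment over all genes.

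In the wider set of pigment cell genes, too, 0 passed in the comparison of exposed with sham skin. Of 26 measured genes listed as regulators, 13 were higher and 13 lower and 0 passed. The smallest p values were those of the melanocortin receptor Mc5r, at -0.38, and of Pax3, a transcription factor upstream of Mitf, at -0.27. Being listed does not show that a gene's signal came from pigment cells. Of 35 measured genes of melanosome formation and transport, 11 were higher and 24 lower and 0 passed. Among them were Gpnmb, a melanosomal glycoprotein also made by macrophages, at -0.40, and Vps39 of the endosomal tethering complex at -0.12. Of 17 other genes linked to pigment cells, 5 were higher and 12 lower and 0 passed, with the lipoprotein gene Apoe at -0.12. The median differences of the 3 lists were 0.00, -0.02 and -0.07, against -0.02 over all genes.

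Against Krt25, 1 of the 26 regulators passed. It was Lef1, a transcription factor of Wnt signalling that is also a hair matrix gene and stands on the hair shaft list too, with a slope of 0.62 (limma adjusted p = 0.0420), and its slope on Krt85 was 0.34 (limma adjusted p = 0.0735). Ednrb, the endothelin receptor of melanoblasts, had slopes of 0.29 on Krt85 (limma adjusted p = 0.111) and 0.48 on Krt25 (limma adjusted p = 0.171). None of the 35 melanosome genes and none of the 17 others passed for either keratin; Rab17 had the smallest p for Krt85 (slope -0.10) and Mlph, the melanosome linker melanophilin, for Krt25 (-0.09). Among the others, Bcl2a1 had slopes of -0.16 and -0.27 on the 2 keratins and S100b, a calcium-binding protein of Schwann and pigment cells, slopes of 0.15 and 0.27. The lineage genes Sox10 and Kit were measured as well. Sox10 lay between -3.88 and -3.13 in exposed skin and between -3.60 and -2.82 in sham skin. Kit, which mast cells also express, lay between -3.46 and -2.44 in exposed skin and between -3.54 and -2.69 in sham skin. Like Tyrp1, both were lowest in exposed animal 3 and highest in exposed animal 5 within the exposed group. Within the sham group, Sox10 was highest in sham animal 7, the lowest for Tyrp1. Kit was lowest in sham animal 6, the highest for Tyrp1.

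On Tyrp1, 0 of these 78 genes passed. The smallest p was that of Trpm1, a cation channel gene of melanocytes, with a slope of 0.37 ± 0.086 (SE) and limma adjusted p = 0.534. Rab32, a small GTPase that directs cargo to melanosomes, had a slope of 0.15 (limma adjusted p = 0.601), and Rab27a, which ties melanosomes to their transport complex, a slope of 0.10. Edn3, the ligand of Ednrb, had a slope of 0.37 (limma adjusted p = 0.641), and Ednrb a slope of -0.37 (limma adjusted p = 0.784). Some levels of Trpm1 and Edn3 lay under the dimmest signal well above background on their array, among them both genes in exposed animal 3. Slc7a11, a cystine transporter, had a slope of -0.28.

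As a description, the genes whose levels correlated most with a member over the 14 animals, among 11320 other genes with a symbol, were as follows. For Tyrp1 they were Rflna (r = 0.846), the dermal transcription factor Twist2 (0.839) and Fdxacb1 (0.831). For Mlana they were the mannosidase Man1a1 (r = 0.882), the metalloproteinase inhibitor Timp2 (0.876) and Islr (0.871), a gene of fibroblasts. For Mitf they were Eid1 (r = 0.851), the tight junction claudin Cldn4 (0.835) and Dkk3 (0.831), a secreted protein of the Dickkopf family. Looked up after its values were seen, the gene closest to Gpr143 was Trpm1 (r = 0.834), which correlated at 0.771 with Tyr and 0.766 with Tyrp1 but at 0.0137 with Mlana and -0.545 with Mitf. Trpm1 ran from -6.81 to -5.42 in exposed skin and from -6.62 to -5.07 in sham skin, near the dim end of the arrays. In exposed animals 3 and 4 and sham animals 5 and 8 it lay under the dimmest signal well above background on the array. Its rank in those animals is uncertain, and these coefficients include them. After Trpm1, the genes closest to Gpr143 were Ankrd6 (r = 0.803) and Npy (0.782). The same look-up gave Tcp11 (r = 0.853), Elp4 (0.816) and Rflna (0.813) for Tyr. For Slc45a2 it gave Ppm1f (r = 0.853), Krt9 (0.7985) and Bcl2l14 (0.798).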

How the data were processed

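The authors deposited scanner files with spot intensity on a linear scale, made with Agilent Feature Extraction 10.7.3.1 per the file headers, which subtracts background and does not scale between arrays. The authors' deposited table of log2 values (15168 probes) is centred per probe; after the same centring it correlated at 0.999977 or above with quantile-normalized signals of the same array, with a slope between 0.999915 and 1.00011, which settles its direction and scale; the steps behind it are not recorded in the labels.

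Control spots (4259 of 62976) and outlier spots were left out, log2 signals were scaled to each array's 75th percentile, and 21030 of 30367 probes well above background on at least 6 arrays were kept. A symbol was matched to 59.3% of probes through RefSeq (GRCr8); probe coordinates were not used. Tests used limma 3.58.1 in R 4.3.3 over all genes (two-sided, Benjamini-Hochberg) and permutation tests of correlations. The fits were tested on simulated data. Members and lists were chosen with earlier results of these data known. Named genes are the members, both keratins, list genes that passed (up to 4) or the 2 of smallest p, and the 3 genes most like each of the 3 members with the highest mean; any other gene was named with its values already known. One gene that this rule names is not reported here. Precision is limited by the number of arrays.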

Additional observations from a re-analysis of the deposited data

Results flagged for a closer look

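The level of Tyrp1 in exposed animal 3, -6.10, passed the 95% critical value of Dixon's test against the other exposed animals (ratio 0.638, critical value 0.625), of which the nearest was at -3.52. Neither Tyrp1 probe was well above background on that array, so -6.10 is a bound. Set at -5.75, the dimmest signal well above background on that array, the ratio was 0.604, under the critical value. Of 16 sets of values checked (8 genes in each of the 2 groups), this was the only one to pass, and chance alone flags some sets at this level.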

How the results depend on the processing

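No paired analysis was possible because the labels give animals no shared replicate numbers. The count of pigment genes called stayed at 0 for exposed against sham, for Krt85 and for Krt25 under each alternative run, including each animal left out in turn. With the authors' values only 3 pigment genes could be tested (Tyrp1, Mlana and Mitf). With probes well above background on all 14 arrays only 2 could be (Mlana and Mitf), so these runs say nothing about the other pigment genes. The slope on Tyrp1 called 1 gene, Tyr, and 0 in the authors' values (which hold neither Tyr nor Gpr143), with slide as a block, within slide 3, in sham animals alone and with Krt85 as a covariate; without a group term it called 2, and with single animals left out 0 (exposed animal 3) to 2. The 3 correlated pairs became 6 with normexp and 1 within slide 3, and stayed at 3 with single animals left out. None of these 3 pairs could be tested in the authors' values. Those values hold only the 3 pairs among Tyrp1, Mlana and Mitf, of which 0 passed. Not called in any setting, these differences took the other sign: Tyrp1 (-0.0947 with slide as a block, -0.331 within slide 3, -0.0128 with Ckm as a covariate, -0.272 to 0.538 with single animals left out), Tyr (-0.0369 within slide 3, -0.0117 to 0.753), Gpr143 (-0.0528 within slide 3, -0.0813 to 0.426), Slc45a2 (-0.0493 to 0.219), Mitf (0.0787 within slide 4) and Mlana (0.000627 with array weights). For slopes on Krt85 it turned for Mitf within slide 3 (-0.0313) and for Slc45a2 with normexp (-0.0124), slide as a block (-0.00782), array signal (-0.0123) or Ckm (-0.00684) as a covariate and single animals left out (-0.00564 to 0.0855). For slopes on Krt25 it turned within slide 3 for Mitf (-0.0647), Mlana (-0.0670) and Tyrp1 (0.0737). It also turned for Mlana with slide as a block (-0.0374), Ckm (-0.0221), no group term (-0.0250), sham animals alone (-0.0417) and single animals left out (-0.05002 to 0.0476). The Krt25 slope of Slc45a2 turned with normexp (-0.0764), array signal (-0.105), Ckm (-0.0461), sham animals alone (-0.00202) and single animals left out (-0.0346 to 0.173). The slope of Mitf on Tyrp1 was 0.00131 with Krt85 as a covariate. Over all genes, calls for Krt85 numbered 106 and became 54 with slide as a block, 8 within slide 3, 39 in sham animals alone and 68 without exposed animal 1. Calls for Krt25 numbered 120 and became 518 with no filter on dim probes (124 positive and 394 negative), 21 with slide as a block, 0 within slide 3 (limma, 546 at unadjusted p under 0.05), 22 in sham animals alone, and 36, 67, 62, 60 and 69 without exposed animals 1 and 6 and sham animals 1, 2 and 3. Calls for Tyrp1 numbered 4 and became 2 in the authors' values, 1 with slide as a block, 0 within slide 3 (limma, 3144 at unadjusted p under 0.05), 0 in sham animals alone (limma, 4594), 1 with Krt85 as a covariate, and 1 and 7 without exposed animals 3 and 5. The cause was not tested. Values of Tyr, Tyrp1, Gpr143 and Slc45a2 that are not well above background, all 4 in exposed animal 3, are bounds.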
